A study of Rattus norvegicus with 30 samples.

Results

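The 10 genes Sycp1, Sycp2, Sycp3, Dmc1, Spo11, Hormad1, Ccna1, Hspa2, Ldhc and Pgk2, which are typical of spermatocytes in meiosis, were followed in the testis of young rats after a single dose of mono-(2-ethylhexyl) phthalate (MEHP). A member was measured by every probe set, apart from the control probe sets, that the array annotation assigns to that 1 gene symbol. By this rule 7 of the 10 genes had probe sets, 9 in all, out of 14217 genes and 20826 probe sets with 1 symbol. Sycp1, Sycp2, Sycp3, Spo11 and Ldhc had 1 probe set each, and Ccna1 and Hspa2 had 2. Dmc1, Hormad1 and Pgk2 were not analysed here because the annotation lists no probe set under their symbol alone. The rule that picks the probe sets uses the annotation and no measured value.

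In prophase of the first meiotic division, homologous chromosomes pair, are joined along their length by the synaptonemal complex, and exchange DNA at breaks that the cell makes on purpose. Sycp1 is the transverse filament of the synaptonemal complex, Sycp2 and Sycp3 form its lateral elements, Hormad1 sits on the chromosome axis, Spo11 cuts the DNA and Dmc1 carries out the strand exchange that repairs the cuts. Later in the long pachytene stage, spermatocytes switch on genes for the coming division and for sperm metabolism. Ccna1 is the A-type cyclin of male germ cells, Hspa2 a testis heat shock protein needed for the complex to come apart and the division to start, Ldhc the lactate dehydrogenase of germ cells, and Pgk2 their phosphoglycerate kinase.

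Male Fischer rats of postnatal day 28 were given by oral gavage either MEHP at 1 g/kg in corn oil or corn oil alone, and testis RNA was taken 1, 2, 3, 6 or 12 h later. MEHP is what the body makes from a common plasticizer, di-(2-ethylhexyl) phthalate, and it is known as a toxicant of Sertoli cells, the somatic cells that carry the germ cells. There were 3 animals in every one of the 10 groups, and 1 single-colour array was run for each of the 30 animals, so the p values measure the spread between animals. The comparison asks whether transcripts of meiotic cells differed after MEHP at each time. In whole testis, fewer spermatocytes and less transcript per spermatocyte cannot be told apart.

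The array medians ran from 117.2 to 165.4 signal units, and the RNA integrity numbers, which the labels give for all animals but corn oil animal 35, were lowest at 2 h (8.2 to 8.5). Corn oil animal 7 (2 h) is labelled corn oil in its title and treatment text, but its sample code begins like those of the MEHP animals. It was kept in the corn oil group, and without it 0 member probe sets were called at 2 h (smallest adjusted p = 0.133, limma). The tissue labels were checked against marker genes. The Sertoli cell genes Wt1 and Clu and the Leydig cell genes Cyp17a1 and Hsd3b1 were at or above the 40th percentile of the array on all 30 arrays, and the epididymal genes Defb1 and Adam7 on 0. Rhox5, another Sertoli cell gene of the marker list, was so on 3.

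All 10 members have a promoter in the RefSeq table used here (GRCr8 build, 250 bases before to 50 bases after the start site), out of 33469 promoters. The 4 printed next are shown because they set Sycp1 and Sycp3 of the synaptonemal complex beside Ccna1 and Ldhc, which varied most closely with gavage volume within groups. Capitals mark TCCCGC, the core of a binding site of E2F factors, and CACGTG, an E-box, on either strand.
Sycp1 (chr2:193145131-193145430, reverse strand): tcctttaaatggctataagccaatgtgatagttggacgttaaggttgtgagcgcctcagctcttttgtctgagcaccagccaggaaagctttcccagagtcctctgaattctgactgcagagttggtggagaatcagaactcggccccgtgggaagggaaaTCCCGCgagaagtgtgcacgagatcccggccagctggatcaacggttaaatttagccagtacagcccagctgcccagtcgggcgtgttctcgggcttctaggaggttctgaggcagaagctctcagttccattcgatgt
Sycp3 (chr7:24761226-24761525, forward strand): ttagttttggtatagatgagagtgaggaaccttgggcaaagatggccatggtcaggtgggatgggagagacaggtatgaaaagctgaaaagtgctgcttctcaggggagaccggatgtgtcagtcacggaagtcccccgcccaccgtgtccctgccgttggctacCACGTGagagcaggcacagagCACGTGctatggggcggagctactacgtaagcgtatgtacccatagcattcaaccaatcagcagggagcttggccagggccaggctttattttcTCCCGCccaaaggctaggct
Ccna1 (chr2:141393251-141393550, reverse strand): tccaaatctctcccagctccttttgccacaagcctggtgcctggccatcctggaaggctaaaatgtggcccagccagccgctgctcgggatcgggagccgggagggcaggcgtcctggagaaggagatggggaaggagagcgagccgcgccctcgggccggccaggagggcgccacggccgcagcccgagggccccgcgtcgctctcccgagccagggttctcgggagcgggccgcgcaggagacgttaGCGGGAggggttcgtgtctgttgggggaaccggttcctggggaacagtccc
Ldhc (chr1:106522745-106523044, forward strand): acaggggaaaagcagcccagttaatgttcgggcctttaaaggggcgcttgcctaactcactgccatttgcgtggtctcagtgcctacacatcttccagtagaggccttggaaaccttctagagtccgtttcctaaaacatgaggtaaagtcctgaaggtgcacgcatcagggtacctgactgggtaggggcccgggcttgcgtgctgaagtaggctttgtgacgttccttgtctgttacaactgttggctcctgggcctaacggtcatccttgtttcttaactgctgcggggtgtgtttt
TCCCGC was found on either strand in 7 of the 10 member promoters, those of Sycp1, Sycp2, Sycp3, Spo11, Hormad1, Ccna1 and Hspa2, and in 18.7% of all promoters in the table. CACGTG was found in 3 (Sycp3, Hormad1 and Pgk2) and in 6.42% of all promoters. GGGCGG, a GC box that can overlap TCCCGC, was found in 5 (Sycp2, Sycp3, Spo11, Hspa2 and Pgk2) and in 33.1%. TGACG, the short form of a cAMP response element, was found in 2 (Sycp2 and Ldhc) and in 21.2%, and the full site TGACGTCA in 0 and in 1.83%. The member promoters also held more CpG pairs, 9 to 26 with a median of 14.5, than the median of 7 over all promoters, and a motif that contains CpG is met more often where CpG pairs are more frequent. The Sycp3 promoter held both E-boxes upstream of the start site, 85 and 64 bases before it, and its TCCCGC downstream. The Ldhc promoter held neither marked motif. These 5 motifs were the only ones searched, and the matches describe the letters of these windows and were not tested as binding sites.

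Signals are deposited linear array intensities, given below as such. Differences subtract the corn oil mean from the MEHP mean of a time, both in log2(signal + 16), and carry their standard error (SE) with 3 animals per group, and p values are adjusted over the 21190 probe sets tested with limma. All 9 member probe sets passed the filter on low signals, 8 of them on every array. The weaker Ccna1 probe set lay below the 40th percentile on 12 of the 30 arrays.

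No member was called at any time. limma called 0 of the 9 member probe sets at 1, 2, 3, 6 and 12 h, against 0%, 0.661%, 0.0425%, 0.203% and 8.74% of all probe sets tested at these times. Without adjustment, 0, 1, 1, 0 and 0 member probe sets had p under 0.05, against 2.44%, 14%, 10.1%, 5.17% and 20% of all probe sets. At every time, 12 h included, the share of all probe sets called corresponds to fewer than 1 of 9, so 0 of 9 called says little about the members. Fitted together over the 5 times, 0 member probe sets were called for a difference at any time (4.71% of all probe sets; without adjustment 1 of 9, against 17.5%) and 0 for a difference that varied with time (2.87%; without adjustment 1 of 9, against 16.3%). The shares called in both of these tests also correspond to fewer than 1 of 9.

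**Figure D1:**
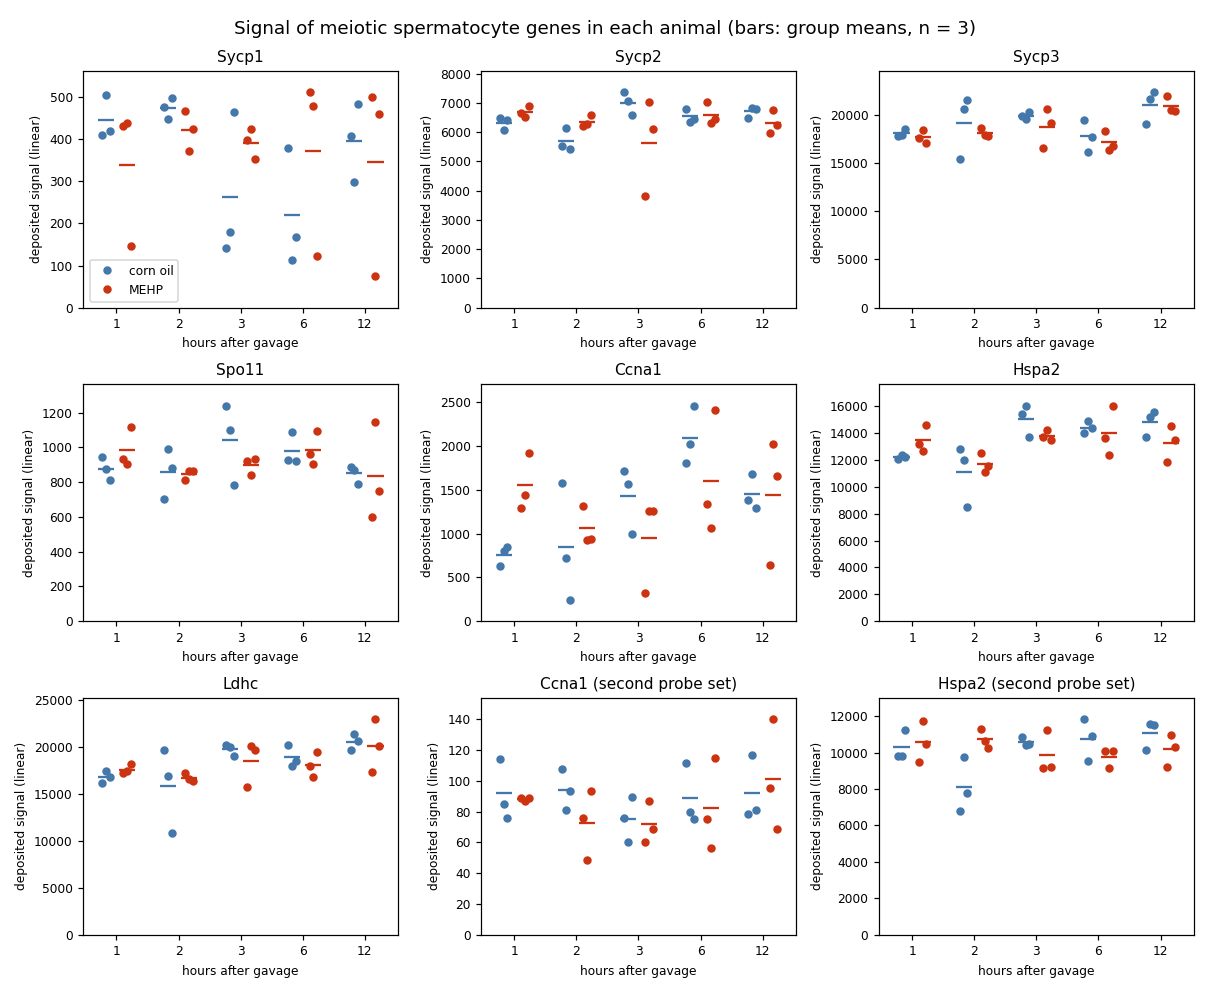
Deposited signal (linear, from 0) of each member probe set in each animal against hours after gavage, with corn oil in blue, MEHP in red and horizontal bars at the means of 3 animals. Sycp3, Hspa2 and Ldhc stay within narrow bands, Ccna1 is spread widely within both treatments, and Sycp1 has 7 animals at 179.1 or below.

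At 12 h, when 1852 probe sets were called across the array, the members with tight replicates lay close to their controls. Sycp3, the lateral element protein, had signals of 21950, 20440 and 20340 after MEHP and 19070, 21650 and 22320 after corn oil. The MEHP values lay inside the corn oil range, and the fold was 0.997 with a 95% confidence interval of 0.868 to 1.14. Ldhc had 17300, 22940 and 20100 after MEHP and 19650, 21370 and 20640 after corn oil. Here the MEHP animals were the wider group and enclosed the controls, with a fold of 0.973 (0.801 to 1.18). Hspa2 had 11880, 14500 and 13480 after MEHP and 13740, 15230 and 15600 after corn oil, a difference of -0.16 ± 0.11 (SE; adjusted p = 0.471) and a fold of 0.893 (0.76 to 1.05). The groups overlapped in 1 animal pair, and the second Hspa2 probe set differed by -0.12 ± 0.11 (adjusted p = 0.618).

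The remaining members had intervals of unequal width at 12 h. The fold was 0.942 (0.787 to 1.13) for Sycp2, 0.948 (0.74 to 1.21) for Spo11, 0.898 (0.436 to 1.85) for Ccna1 and 0.696 (0.315 to 1.54) for Sycp1. The intervals of Sycp1 and Ccna1 reach folds below 0.5 and above 1.5, so 3 animals per group left the size of their difference largely undetermined. Over all 9 member probe sets the differences at 12 h ran from -0.52 to 0.09, with 8 negative and a median of -0.09. The median over all probe sets tested was -0.04, with quartiles of -0.23 and 0.14. The Sycp1 difference of -0.52 ± 0.55 turned to 0.29 without MEHP animal 58, whose Sycp1 signal was 75.46. The MEHP and corn oil animals overlapped at 12 h for every member probe set (0 of 9 without overlap, against 21.7% of all probe sets).

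**Figure D2:**
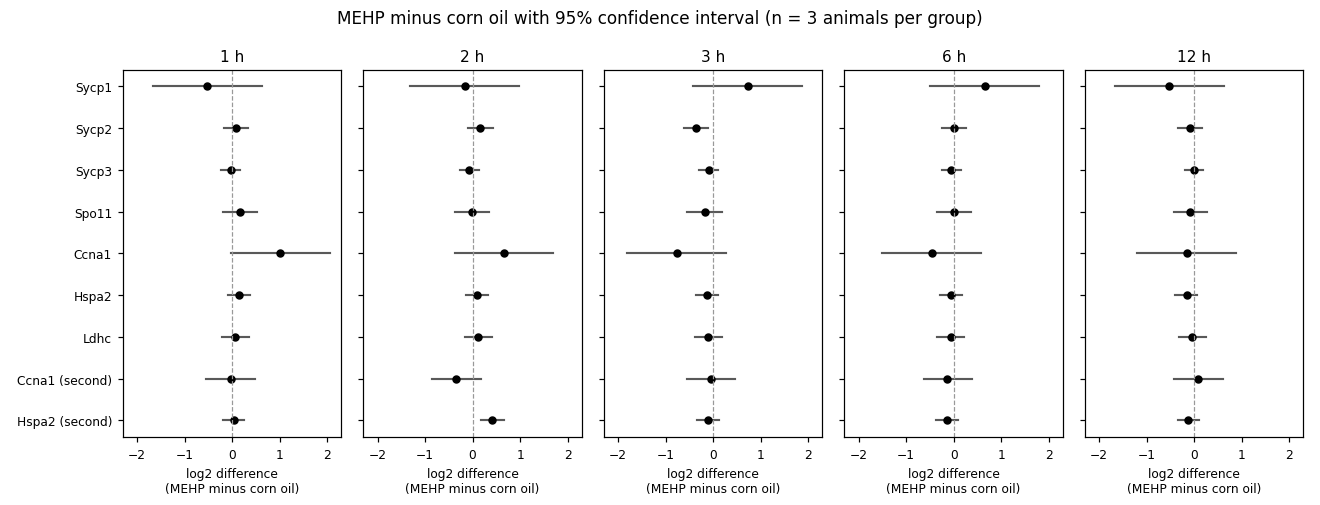
Differences (MEHP minus corn oil, log2) of the 9 member probe sets at the 5 times, with points for the estimates and lines for 95% confidence intervals. The intervals of Sycp3, Hspa2 and Ldhc are short and those of Sycp1 and Ccna1 span more than 2 log2 units; 2 of the 45 intervals lie clear of 0 (Sycp2 at 3 h and the second Hspa2 probe set at 2 h), and neither difference passed the adjusted test.

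The synaptonemal complex genes had their largest differences at 3 h. Sycp2 had signals of 3812, 7019 and 6107 after MEHP at 3 h and 7362, 7070 and 6581 after corn oil. MEHP animal 49, at 3812, was the lowest of all 30 animals for this gene. The difference was -0.35 ± 0.13 (unadjusted p = 0.00945, adjusted p = 0.477 in limma), and without animal 49 it was -0.10. Sycp3 differed by -0.09 ± 0.10 at 3 h and by -0.07 to 0.00 at the other times. Averaged over the 5 times, its fold was 0.966 (0.908 to 1.03). Across groups Sycp3 means were highest in both 12 h groups (21010 ± 1710 after corn oil and 20910 ± 902 after MEHP, SD, n = 3) and lowest in the MEHP group at 6 h (17130 ± 1070). Neighbouring means in that order differed by less than the larger of their SDs, except 20910 ± 902 and the next, 19910 ± 384 in corn oil animals at 3 h, and the corn oil groups alone did not pass the test across times (adjusted p = 0.317).

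Spo11, which makes the DNA breaks of recombination, varied little between groups and more between animals. Its differences ran from -0.18 ± 0.17 at 3 h to 0.16 ± 0.17 at 1 h, with adjusted p values of 0.718 to 0.999. The widest group was MEHP at 12 h, with 601.7, 1149 and 752.3, the first of which was the lowest signal of all 30 animals. Corn oil animals at that time had 889.6, 871.3 and 791.2. The highest Spo11 signal, 1240, belonged to a corn oil animal at 3 h.

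Sycp1 fell into separate levels that did not follow treatment. In 23 animals its signal was 299 to 511.1, and in 7 it was 75.46 to 179.1, with none between. The 7 were 4 corn oil animals (52 and 53 at 3 h, 35 and 36 at 6 h) and 3 MEHP animals (39 at 1 h, 33 at 6 h and 58 at 12 h). These were also the 7 arrays of lowest median signal, 117.2 to 125.4 against 129.3 to 165.4 on the others. Of the 7, 6 were among the 7 arrays of highest Spo11 signal, at 920 to 1240 for all 7. Their ratio of 3' to 5' hexokinase control signal, a measure of RNA integrity, was 0.62 to 1.43 in log2 against 0.23 to 0.84 on the others. Their RNA integrity numbers, missing for animal 35, were 8.4 to 9.7 and lay within the 8.2 to 10 of the others. Whether array processing or RNA quality accounts for the low Sycp1 signals was not tested.

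**Figure D3:**
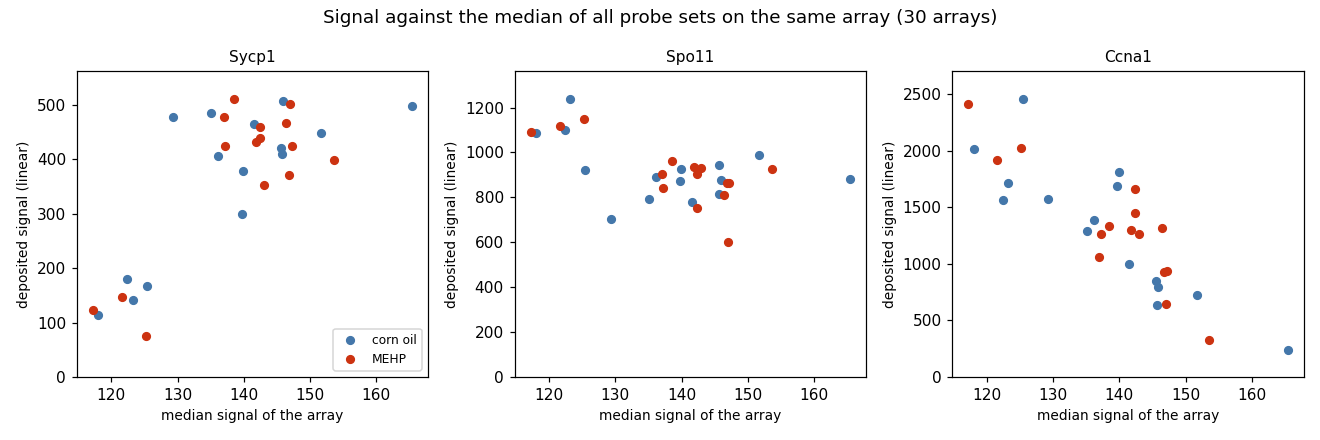
Deposited signal of Sycp1, Spo11 and Ccna1 (linear, from 0) against the median signal of the same array, with 1 point per animal, corn oil in blue and MEHP in red. The 7 animals with Sycp1 at 179.1 or below all have array medians of 125.4 or below, and both treatments occur among them.

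Sycp1 differed by 0.73 ± 0.55 at 3 h and 0.65 ± 0.55 at 6 h, where corn oil groups held 2 of the low animals each, and by -0.52 ± 0.55 at 1 h, where the MEHP group held 1. Averaged over the 5 times its fold was 1.02 (0.718 to 1.46). By the root mean square difference of centred log2 profiles over the 30 arrays, the genes most like Sycp1 were Glcci1 (0.27), Myo10 (0.27) and Snhg11 (0.28), among 1247 candidates with at least comparable spread. The profiles compared all include the 7 arrays of low median signal.

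Ccna1, the germ cell cyclin of the coming division, varied most of the members. Its signal ran from 238.9 in a corn oil animal at 2 h to 2462 in a corn oil animal at 6 h, a range of 10.3 times, where Sycp3 ranged over 1.45 times. At 1 h Ccna1 had 1299, 1448 and 1922 after MEHP and 635.5, 799.1 and 846.3 after corn oil. All 3 MEHP animals lay above all 3 corn oil animals, with a difference of 1.01 ± 0.50 that did not pass the test (adjusted p = 0.941, limma). At 3 h the order was the other way, with 325.9, 1261 and 1265 after MEHP and 1713, 1564 and 1001 after corn oil, and here the groups overlapped (-0.77 ± 0.50, adjusted p = 0.599). The second Ccna1 probe set differed by -0.03 ± 0.25 at 1 h and by -0.05 ± 0.25 at 3 h, at signals of 48.52 to 140.1 near the filter level.

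The labels give the gavage volume of each animal, and Ccna1 followed it in both treatments. The volume ran from 0.178 to 0.305 ml. The labels give the dose per body weight and the volume per animal but no body weight. Corn oil animal 48, which received the smallest volume, had the lowest Ccna1 signal (238.9). MEHP animal 49, with 0.188 ml, had the next lowest (325.9), and corn oil animal 36, with the largest volume of 0.305 ml, had the highest (2462). Over 30 animals Pearson's r was 0.83 and Spearman's rho 0.86 (permutation p = 1e-05 for each, the smallest that 100000 permutations can give, and adjusted p = 7e-05 over 7 genes). Without the 2 animals farthest from the median volume, 36 and 48, r was 0.79. After centring each of the 10 groups r was 0.91 (permutation p within groups = 2e-05, adjusted p = 0.00014). It was 0.89 among the 15 corn oil and 0.75 among the 15 MEHP animals, and 0.87, 0.96, 0.99, 0.89 and 0.92 among the 6 animals of 1, 2, 3, 6 and 12 h. The relation was sought in these data and was not part of the study's stated comparison.

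**Figure D4:**
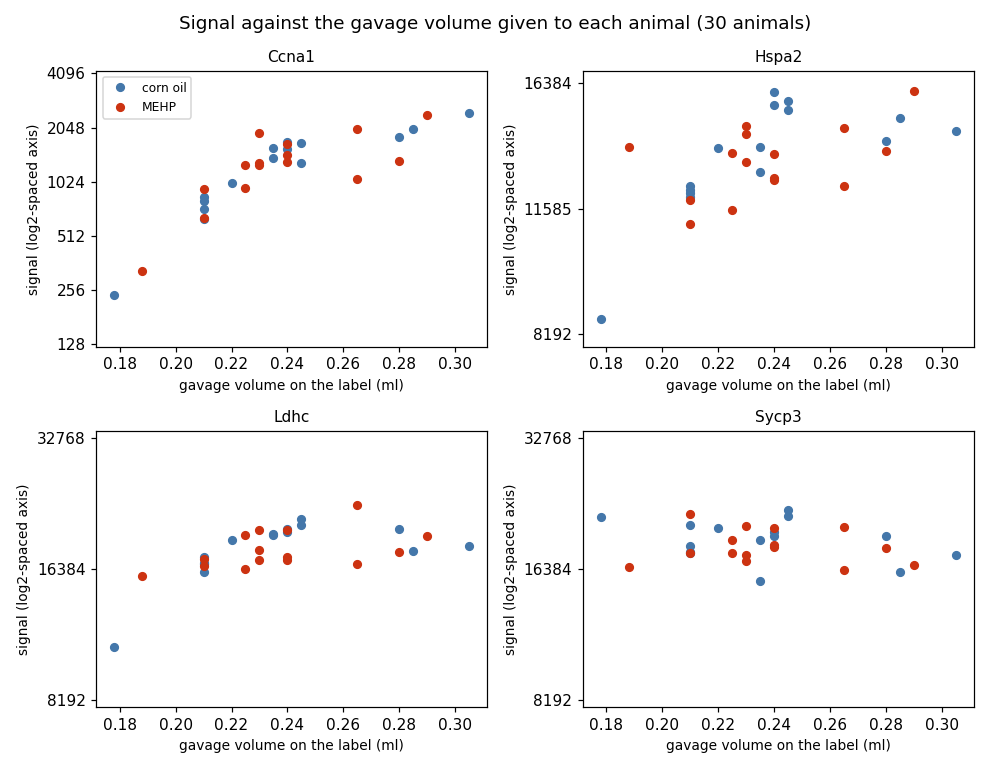
Deposited signal of Ccna1, Hspa2, Ldhc and Sycp3 on log2-spaced axes against the gavage volume on the label in ml, with 1 point per animal, corn oil in blue and MEHP in red. Ccna1 climbs from 238.9 at 0.178 ml to 2462 at 0.305 ml in both treatments together, and Sycp3 shows no such slope (r = -0.23).

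The volume differed between groups of a time as well. At 1 h each corn oil animal received 0.21 ml and the MEHP animals 0.23 to 0.24 ml. With volume as a covariate the Ccna1 difference at 1 h was 0.16 ± 0.23 in place of 1.01, that at 2 h 0.03 ± 0.22 in place of 0.66, and that at 3 h -0.08 ± 0.22 in place of -0.77. At 1 h the volumes of the treatments did not overlap, so volume and treatment cannot be told apart there. The adjusted value at 1 h rests on a slope with volume that was fitted over all groups. The 6 h animals received 0.265 to 0.305 ml, more than all others except 1 MEHP animal at 12 h that equalled the lowest of them. Ccna1 means were highest in the 6 h groups (2097 ± 333 after corn oil and 1607 ± 715 after MEHP, SD, n = 3).

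The pachytene genes Hspa2 and Ldhc followed volume less closely. For Hspa2 r was 0.61 and rho 0.66 (permutation p = 0.00034 and 8e-05, adjusted p = 0.00119 and 0.00028), 0.53 without animals 36 and 48, and 0.75 after centring groups (adjusted p = 0.00077). For Ldhc r was 0.55 and rho 0.60 (permutation p = 0.0017 and 0.00065, adjusted p = 0.00397 and 0.00152), 0.48 without those animals, and 0.82 after centring (adjusted p = 0.00224). Within times r was 0.58 to 0.93 for Hspa2 and 0.44 to 0.99 for Ldhc. Sycp2 had r of 0.47 and rho of 0.47 (permutation p = 0.00789 and 0.00979, adjusted p = 0.011 and 0.0171), r of 0.46 without those animals and -0.05 to 0.96 within times, and its centred r of 0.53 did not pass (adjusted permutation p = 0.0541). Spo11 (r = 0.34, rho = 0.30, adjusted permutation p = 0.0808 and 0.129) and Sycp3 (r = -0.23, rho = -0.14, adjusted permutation p = 0.213 and 0.466) did not pass. Sycp1, which has separate levels, had r of -0.51 and rho of -0.34 over all animals (adjusted permutation p = 0.00719 and 0.0986). Its centred r of -0.44 did not pass (adjusted permutation p = 0.0756). With the log2 array median its r was 0.80, for which no p was computed. Its 7 low animals had received 0.23 to 0.305 ml and the other 23 animals 0.178 to 0.28 ml. Within the 7, r with volume was -0.16 and rho -0.20 (exact permutation p = 0.749 and 0.67), and within the 23, r was -0.03 and rho 0.06 (permutation p = 0.877 and 0.788). The levels were cut at a gap in the Sycp1 signal itself, which narrows its range within each. The r within levels therefore cannot decide whether Sycp1 went with volume.

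The volume and these signals also went with the median of the array. Volume and log2 array median had r of -0.72 and rho of -0.76 (adjusted permutation p = 2.33e-05 and 4.67e-05 over 7 relations). For Ccna1 r with the log2 array median was -0.82 and rho -0.83, and for Hspa2 -0.78 and -0.82 (adjusted permutation p = 2.33e-05 and 3.5e-05 for each gene, from the smallest p that the permutations can give). For Ldhc r was -0.63 and rho -0.67 (adjusted permutation p = 0.00021 and 0.000245). Without corn oil animal 35 and MEHP animal 33, the farthest from the middle of the array medians, r was -0.64 for volume, -0.81 for Ccna1, -0.77 for Hspa2 and -0.71 for Ldhc. Within times r was -0.89 to -0.46 for volume, -0.89 to -0.69 for Ccna1, -0.95 to -0.59 for Hspa2 and -0.89 to -0.12 for Ldhc. Over all animals r was larger in size with the array median than with volume for Sycp1, Sycp3, Spo11, Hspa2 and Ldhc. It was nearly equal for Ccna1 and Sycp2. After centring groups r was -0.77 for Ccna1, -0.78 for Hspa2 and -0.63 for Ldhc, beside 0.91, 0.75 and 0.82 with volume. Spo11 (r = -0.53, adjusted permutation p = 0.00304) and Sycp2 (r = -0.46, adjusted permutation p = 0.0103) also passed with the array median. Within times their r was -0.93 to 0.75 and -0.80 to 0.60. Sycp3 did not pass (r = 0.31, adjusted permutation p = 0.1). The parts of volume and array median in these signals were not tested.

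Markers of later germ cells varied as well, and not all alike. The summed signal of 7 spermatid markers that passed the filter was 4722 in corn oil animal 48, the lowest, and 12280 to 14080 in the 3 corn oil animals of 6 h. It was highest in MEHP animals 33 (15500) and 58 (15350), and MEHP animal 39 had 13650 at 0.23 ml. A relation of the sum with volume was not tested. Most of this sum was Odf2, an outer dense fibre gene of the sperm tail, with means of 7346 ± 3880 in corn oil animals at 2 h and 10970 ± 319 at 6 h (SD, n = 3). Cst8, a cystatin of the male tract and germ cells, went the other way, with 785.5 ± 256 and 503.9 ± 21.8. Of the 11 spermatid markers with a probe set, the nuclear proteins of late spermatids Prm1 and Tnp2 were at or above the 40th percentile on 0 arrays, Prm2 on 4 and Tnp1 on 2. Odf1, Odf2 and Cst8 were so on all 30. The genes whose profiles over the 30 arrays were most like that of Ccna1 were Tekt4, a tektin of the sperm tail (0.18), Chct1 (0.19) and Lin7a (0.19), among 1113 candidates. The part of spermatid content in the Ccna1 signal was not tested.

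Hspa2 gave the smallest p of the members. Its second probe set had signals of 11300, 10650 and 10250 after MEHP at 2 h and 6819, 9777 and 7798 after corn oil. The MEHP animals lay above the corn oil animals, which were spread more widely, with a difference of 0.41 ± 0.11 (unadjusted p = 0.00108, adjusted p = 0.0777). The corn oil mean of 8131 ± 1510 (SD, n = 3) was the lowest of the 10 groups, and the MEHP mean of 10730 ± 529 ranked 3 among them. The leading probe set of the gene, at 12530, 11110 and 11530 after MEHP and 12830, 11960 and 8532 after corn oil, did not separate the groups (0.10 ± 0.11, adjusted p = 0.752). The call depended on the setting. The second probe set passed without corn oil animal 47 (0.56, adjusted p = 0.0224) and with quantile normalization (0.46, adjusted p = 0.0445), and did not pass without corn oil animal 7 (0.30, adjusted p = 0.134) or 48 (0.39, adjusted p = 0.238). The genes most like the leading Hspa2 probe set in profile were Ik, Cdkal1 and Sanbr (0.08 each).

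Member groups that did not overlap were met at 1 h and 2 h, always with MEHP above corn oil. At 1 h they were Sycp2, Ccna1 and Hspa2, 3 of 9 probe sets against 19.3% of all probe sets tested. At 2 h they were Sycp2 and the second Hspa2 probe set, 2 of 9 against 18.9%. At 3 h and 6 h they were 0 of 9, against 11.4% and 12%. For Sycp2 the separations were small, 0.08 ± 0.13 at 1 h and 0.16 ± 0.13 at 2 h.

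The control groups were also compared with each other. Across the 5 corn oil groups, limma called 0 of 9 member probe sets, against 0.033% of all probe sets. An unadjusted p under 0.05 was found for 4 of 9, against 20.7% of all probe sets. These were both probe sets of Hspa2 (adjusted p = 0.105 and 0.114), Ccna1 (0.174) and Ldhc (0.201). Leading Hspa2 signals averaged 11110 ± 2270 in corn oil animals at 2 h and 15060 ± 1190 at 3 h, and Ldhc 15820 ± 4530 and 19760 ± 613 (SD, n = 3). Corn oil animal 48 had the lowest signal of all 30 animals for both genes, 8532 and 10840. Without corn oil animal 7, Hspa2 (adjusted p = 0.0231), Ldhc (0.0298) and Ccna1 (0.0306) passed, and 1936 probe sets in all were then called in place of 7. With volume as a covariate the same 3 genes passed (0.0256, 0.0221 and 0.031), with 872 probe sets called in all.

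Relatives used by other cells were compared with their germ cell forms. Ldha and Ldhb, the lactate dehydrogenases of somatic tissues, differed at 12 h by 0.27 ± 0.15 (adjusted p = 0.347) and 0.06 ± 0.13 (0.857), beside -0.04 ± 0.14 for Ldhc. Pgk1, the somatic partner of Pgk2, differed by 0.30 ± 0.19 (0.429) in its leading probe set and by 0.53 ± 0.21 (0.14) in a second. Ccna2, the cyclin of mitotic cells, differed by -0.49 ± 0.25 (0.282). Its MEHP animals lay below the corn oil animals at 12 h, with means of 535.2 ± 88.2 and 755.4 ± 116 (SD, n = 3). Its mean over 5 times was -0.31 ± 0.11 (adjusted p = 0.172). None of these passed the test with all animals. Both Pgk1 differences rest on MEHP animal 57, whose signals were 3025 against 1524 and 1345 in the other MEHP animals for the leading probe set and 1954 against 859.6 and 791.2 for the second. Without it they were -0.06 (adjusted p = 0.908) and 0.12 (0.799), and the second passed without MEHP animal 58 (0.70, 0.0412) or 59 (0.76, 0.0258) and with the spermatid marker level as a covariate (0.57, 0.0415). The differences between relatives were not tested.

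Other genes of meiosis were counted by list. Of 84 genes in 5 lists (synapsis and axis, recombination, pachytene programme, meiotic entry and meiotic division), 48 had a probe set under 1 symbol, and all 48 were tested. In limma 1 was called at 2 h and 0 at 1, 3, 6 and 12 h, to be read against the shares of all probe sets given above. The counts moved with the setting. At 12 h the count was 2 without MEHP animal 58 and with the spermatid marker level as a covariate. It was 1 at 12 h with the array median as a covariate and without corn oil animal 48. At 3 h it was 1 without corn oil animal 54, and at 2 h it was 0 to 3 under other settings. An unadjusted p under 0.05 was found for 1, 9, 4, 0 and 4 of the 48 at 1, 2, 3, 6 and 12 h, to be read against 2.44%, 14%, 10.1%, 5.17% and 20% of all probe sets. At 12 h all 48 lay between -0.33 and 0.32.

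The called gene was Dmrt1, a transcription factor of spermatogonia and Sertoli cells that holds back entry into meiosis. At 2 h it was lower after MEHP by 0.64 ± 0.12 on the log2 scale (adjusted p = 0.0157), at 687.8 ± 46.7 against 1096 ± 262 after corn oil (SD, n = 3). That corn oil mean was the highest of the 10 groups, and the other corn oil means were 616.9 to 837.4. The MEHP mean at 2 h lay within the MEHP means of the other times, 592.8 to 796.2. The Dmrt1 difference no longer passed without corn oil animal 48 (-0.46, adjusted p = 0.104), without MEHP animal 44 (-0.58, 0.12) or 45 (-0.67, 0.0554), with spike level as a covariate (-0.45, 0.264) and in a fit of the 2 h groups alone (0.35). Without corn oil animal 7 it remained (-0.80, adjusted p = 0.00167). Markers of other cells were also lower after MEHP than after corn oil at 2 h. All 8 Sertoli cell genes (median -0.28), all 6 spermatogonial genes (-0.30, Dmrt1 included) and all 8 macrophage genes (-0.56) were negative, beside a median of -0.01 over all probe sets. Of these C1qb, a complement gene of macrophages, was called besides Dmrt1 (-0.88 ± 0.20, adjusted p = 0.0425), and the part of these cells in the Dmrt1 difference was not tested. Here too corn oil animals of 2 h were high, though not all of them. Their summed signals were 37050 to 55560 for Sertoli, 4809 to 6709 for spermatogonial and 2118 to 2819 for macrophage genes. Other corn oil animals had at most 40540, 5863 and 2136. The MEHP sums were 34430 to 35980, 4771 to 4863 and 1791 to 1823 at 2 h. At 1 h they were 33090 to 35150, 4607 to 4991 and 1878 to 1958, and at 3 h 36110 to 51710, 5140 to 5504 and 1952 to 2177. Among the listed genes of meiosis Rad18, a ubiquitin ligase of DNA repair, came next to Dmrt1 at 2 h (0.36 ± 0.09, adjusted p = 0.0509).

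By list, the counts at 12 h were 0 of 6 genes of synapsis and axis (median -0.17), 0 of 12 of recombination (-0.10), 0 of 13 of the pachytene programme (-0.08), 0 of 5 of meiotic entry (-0.15) and 0 of 12 of meiotic division (-0.14). Over all probe sets 8.74% were called and the median was -0.04. Syce3, a central element protein of the synaptonemal complex, had -0.22 ± 0.12 (adjusted p = 0.357). The cohesin subunits Stag3 and Smc1b had -0.17 ± 0.12 (0.46) and -0.16 ± 0.11 (0.445). Mnd1, a partner of Dmc1, had the lowest value, -0.33 ± 0.15 (0.233), and Mybl1, a transcription factor of pachytene genes, had -0.01 ± 0.10 (0.976).

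The genes of the pachytene list had mostly 1 sign at each time, with no call. Of its 13 genes, 13 were positive at 1 h (median 0.16) and 12 at 2 h (0.22), and 13 were negative at 3 h (-0.22), 12 at 6 h (-0.10) and 11 at 12 h (-0.08). The medians over all probe sets at these times were -0.03, -0.01, 0.01, 0 and -0.04. 0 of 13 passed the test at any of these times (limma), against 0%, 0.661%, 0.0425%, 0.203% and 8.74% of all probe sets. An unadjusted p under 0.05 was found for 0, 1, 0, 0 and 0, against 2.44%, 14%, 10.1%, 5.17% and 20%. The genes of a list share the same 6 animals at each time. Whether their signs went with the volumes, array medians or spermatid markers given above was not tested.

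Markers of other cells on the same arrays at 12 h gave calls in some lists, to be read against the 8.74% of all probe sets. Of 6 Leydig cell genes, 4 fell and 1 rose. Of 5 genes of peritubular myoid cells 4 rose, and both neutrophil genes tested rose. These were S100a8 and S100a9, at or above the 40th percentile on 4 arrays each, and Csf3r, on 1, was not tested. The summed signal of S100a8 and S100a9 at 12 h was 375 to 7358 after MEHP and 15.82 to 30.61 after corn oil. They passed the filter largely through arrays where they were high, so their count is no separate support for a rise. Of 8 macrophage genes 2 rose, and of 4 endothelial genes 1 rose. Of 8 Sertoli cell genes, 2 erythrocyte genes, 7 spermatid markers and 6 spermatogonial genes, 0 passed. In a fit of the 12 h groups alone, 2 myoid and 1 macrophage genes passed, and 0 Leydig, neutrophil and endothelial genes. The myoid count was 2 without MEHP animal 57, and the Leydig gene that rose no longer passed without MEHP animal 58 or corn oil animal 60 or 61. A difference between the members and these markers was not tested.

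**Figure D5:**
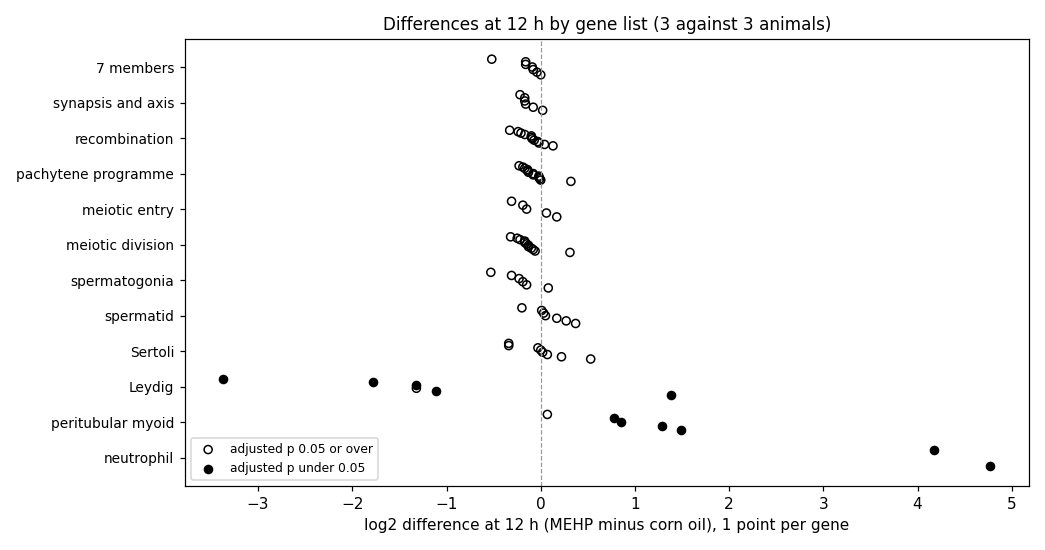
Differences at 12 h (MEHP minus corn oil, log2) of the leading probe sets of the 7 measured members and of the genes of 5 meiotic and 6 cell type lists, with 1 point per gene, filled where the adjusted p is under 0.05. The meiotic lists lie between -0.33 and 0.32 without a filled point, Leydig genes reach -3.37 and neutrophil genes 4.77.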

How the data were processed

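Total testis RNA of 30 rats was hybridised to 1-colour Affymetrix Rat230_2 arrays. The deposited values are a linear intensity per probe set, scaled by the authors with GCOS 1.0 per the submitters' processing notes. How probes were summarised is not given in the sources used here. Groups, animal numbers and gavage volumes come from the labels. The labels of corn oil animals also carry the MEHP dose, which was read as a copied field.

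Of 31042 probe sets other than controls, those at or above an array's 40th percentile on at least 3 arrays were tested (21190). limma 3.58.1 (R 4.3.3) fitted log2(signal + 16) with 1 mean per group, moderated with a trend, and Benjamini-Hochberg adjustment over all probe sets, threshold 0.05. The added 16 shrinks folds of low signals. F tests joined the contrasts. A gene's leading probe set is that of highest mean signal. Named were all members, their somatic relatives, up to 6 called genes per list and direction at 2 and 12 h, and the 3 genes most like each of the 3 members most variable by SD over the 10 group means; Syce3, Stag3, Smc1b, Mnd1, Mybl1 and Rad18 were named after their values were seen. The model was tested on simulated data. Members and lists were chosen with earlier results of these data known. Promoters are from RefSeq (GRCr8).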

Additional observations from a re-analysis of the deposited data

How the results depend on the processing

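No paired analysis was possible because every animal has a number of its own, which recurs in no other group. The settings varied were the pseudocount, filter, scaling, samples in the fit, moderation and 5 covariates, besides leaving out each animal; the array median as a covariate, and the alternatives for the Ccna1 relation with volume, were chosen after seeing the data. At 1, 3, 6 and 12 h the count of member probe sets called stayed at 0 in all 43 alternatives. At 2 h it was 0 in 39 of 43, and 1 (the second Hspa2 probe set) with quantile normalization, the spermatid marker level (adjusted p = 0.0417) and the array median (adjusted p = 0.0365) as covariates, and 0 to 1 when leaving out 1 animal (1 without corn oil animal 47). With the spike level as a covariate it was called at any time (1) and for time dependence (1); leaving out 1 animal gave 0 to 1 for both (1 without corn oil animal 47). Across corn oil groups the count was 3 with the gavage volume as a covariate and 0 to 3 when leaving out 1 animal (3 without corn oil animal 7). The cause of these changes was not tested. Of 1930 member differences recomputed, 4 were called and 76 had the other sign, all of differences not called in the report. The r of Ccna1 with volume was 0.82 to 0.83 under other pseudocounts and scalings.

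Counts over all probe sets moved more. In fits of 2 groups alone they were 1, 1, 10 and 254 for 2, 3, 6 and 12 h. Leaving out 1 animal gave 0 to 1, 11 to 330, 5 to 37, 13 to 75 and 1015 to 2686 for 1, 2, 3, 6 and 12 h, 649 to 1564 at any time, 298 to 1213 for time dependence and 0 to 1936 across corn oil groups. The highest under other settings were 654, 10, 75 and 2707 at 2, 3, 6 and 12 h, 1699 at any time, 1276 for time dependence and 872 across corn oil groups, and the lowest of the last 2 were 289 and 0. Other scalings moved the median difference of all probe sets by under 0.1. With 3 animals per group, members with noisy signals (Sycp1, Ccna1) have 95% intervals of about 2.21 and 2.06 times either way, against 1.15 for Sycp3.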
